A study of Mus musculus with 2 samples.

Results

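Messenger RNAs of 10 mouse genes were compared between a pool of slow and a pool of fast muscle fibres: 7 genes of muscle ubiquitin ligases (Trim63, Trim54, Trim55, Fbxo32, Fbxo30, Fbxo40 and Asb2) and 3 genes of mitophagy receptors (Bnip3, Bnip3l and Fundc1). The genes were listed by name, and every array probe whose RefSeq transcript accession belonged to one of them was taken, which gave 12 probes for 10 of the 23458 genes with a matched probe. Trim63 and Bnip3l had 2 probes each and the other 8 genes had 1 probe. The slow pool held 1659 GFP-positive fibres that the sample's source label and the protocol assign to the soleus, a postural calf muscle, although its tissue label names the extensor digitorum longus (EDL). The fast pool held 4447 fibres without GFP from the EDL, a fast-twitch muscle at the front of the lower leg. Both pools came from the same 8 mice, males of 6 to 8 weeks with the genotype GFP-Myh7 heterozygous (G/+), in which fibres with slow myosin fluoresce, and no treatment is given in the labels. All animals carried the GFP allele, fast fibres were defined by the lack of GFP alone, and muscle of origin and fibre type cannot be told apart. Each pool was hybridised to 1 array, so there are no replicates, the error between animals is unknown for every difference, and precision is limited by having 2 arrays in all.

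Ubiquitin ligases choose the proteins that are marked with ubiquitin for breakdown by the proteasome. In muscle, MuRF1 (Trim63) and atrogin-1 (Fbxo32) are the ligases best known for rising when muscle wastes, and FoxO transcription factors and glucocorticoids are known to induce both. Mitophagy receptors sit in the outer mitochondrial membrane and bind LC3-family proteins of the growing autophagosome, so that the mitochondrion is enclosed and degraded. Bnip3 and Bnip3l are known targets of hypoxia-inducible factors, and Bnip3 is also induced by FoxO3 in muscle.

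One ligase gene and one receptor gene stood apart in opposite directions, and the other 8 genes differed by less than 2-fold. Trim63 was 4.15-fold higher in fast fibres, at a log2 difference of -2.05 (slow minus fast), and Bnip3 was 3.65-fold higher in slow fibres, at 1.87. With 1 of 10 genes past 2-fold in each direction, the share was near the background, since of the 14647 genes with a signal well above background in either pool 10.7% were past 2-fold towards slow fibres and 14.2% towards fast fibres. The remaining log2 differences lay between -0.26 (Trim54) and 0.40 (Trim55). Signals are background-subtracted spot intensities in linear units, and every log2 difference was taken after dividing each array by its 75th percentile. The array software gave each of the 12 signals an error of 10% of its value, which amounts to a standard error of 0.20 for a log2 difference. It is the software's own estimate, a near constant share of these signals. Variation between animals, dissections and labelling reactions is left out of it. On both arrays all 12 probes stood well above background, and none was saturated.

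**Figure D1:**
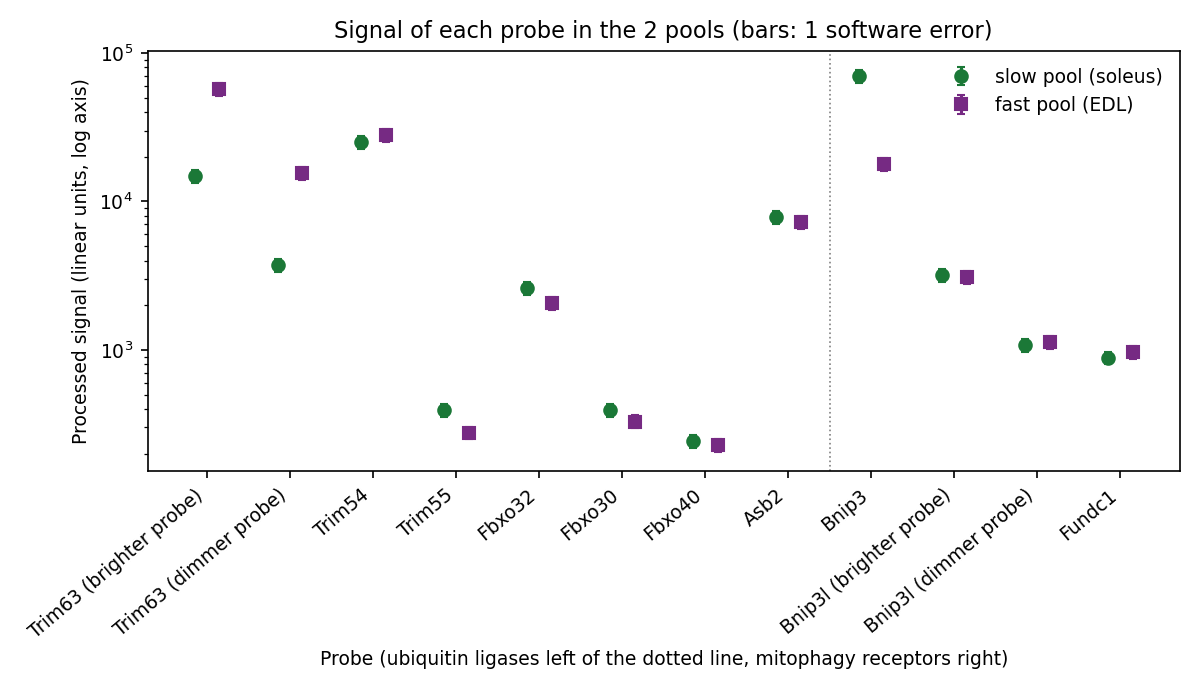
Processed signal (linear units on a log axis) of each of the 12 probes in the slow pool (green circles) and the fast pool (purple squares), with bars of 1 software error. Only the Trim63 probes (lower in the slow pool) and the Bnip3 probe (higher in the slow pool) show widely separated points. Heights of different probes cannot be set against each other.

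Trim63 encodes MuRF1, a RING-finger ligase that binds titin at the M-band and marks thick-filament proteins for breakdown. Its brighter probe gave a signal of 14836 ± 1484 in the slow pool and 57457 ± 5746 in the fast pool (± software error, 1 array each). Its other probe gave 3710 ± 371 in the slow pool and 15553 ± 1555 in the fast pool, a 4.49-fold difference (log2 -2.17). Both probes were thus far brighter in fast fibres, and their log2 differences were 0.11 apart, less than the software error of 0.29 for such a gap. In a pool of fibres, fewer cells that carry a transcript and less of it per cell cannot be told apart. Among the 12855 genes measured on both arrays, 446 had a larger difference towards fast fibres than the brighter probe. Without any scaling the fold was 3.87, and over 9 ways of scaling and background correction the log2 difference lay between -2.24 and -1.63.

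The 250 bases upstream of the Trim63 start are shown because this gene had the largest difference among the ligases, and because sites for the factors named above can be looked for in them. The sequence is from RefSeq (GRCm38.p6, chr4:134314870-134315119, plus strand), 5′ to 3′, with matches to the searched motifs in capitals.
Trim63: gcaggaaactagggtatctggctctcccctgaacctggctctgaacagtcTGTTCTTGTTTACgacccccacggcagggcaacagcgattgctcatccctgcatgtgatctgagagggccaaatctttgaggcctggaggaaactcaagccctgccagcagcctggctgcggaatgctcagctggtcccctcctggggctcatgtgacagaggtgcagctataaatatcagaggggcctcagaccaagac
The capitals join 2 adjacent matches, both on the reverse strand. A glucocorticoid receptor element in its short form (AGAACA) begins 200 bases before the start, and a FoxO site (GTAAACA) begins 194 bases before it. Searched on both strands of windows of 300 bases (250 before and 50 after each start), GTAAACA was found in 3.65% and AGAACA in 19.0% of 32851 mouse promoters. Of the 9 promoters listed for 7 of the 10 genes, GTAAACA was in that of Trim63 only, and AGAACA was also in those of Trim54 and Fbxo40. Promoters of Trim55, Fbxo32 and Bnip3l were not listed and so were not searched. A match describes the letters and is not a measured binding site.

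The relatives of Trim63 did not share its difference. Trim54, or MuRF3, associates with microtubules and the Z-disc, and its signal was 25077 ± 2508 in the slow pool and 27999 ± 2800 in the fast pool. The 2 values lay within 2 software errors of each other (log2 difference -0.26, interval -0.67 to 0.15), and the sign turned to 0.16 under scaling to spike-in controls. Trim55, or MuRF2, binds titin and microtubules, and its signal was 391 ± 39.2 in the slow pool and 277 ± 27.7 in the fast pool. It was 1.32-fold higher in slow fibres (log2 0.40, interval -0.0064 to 0.81), so the pools lay just within 2 software errors of each other. Under the 9 scalings Trim55 kept a positive sign, between 0.29 and 0.82. Within this family of 3, then, Trim63 was past 2-fold towards fast fibres, and Trim54 and Trim55 were within 2-fold.

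The 3 F-box genes encode the substrate-binding subunits of SCF-type ligases, which are built on cullin-1, and each differed by less than its software error interval. Fbxo32, the atrogin-1 gene, had a signal of 2597 ± 259.7 in the slow pool and 2061 ± 206 in the fast pool, which is 1.18-fold higher in slow fibres (log2 0.24, interval -0.17 to 0.64). Atrogin-1 and MuRF1 are usually followed side by side in muscle wasting. Here the gap between the Fbxo32 and Trim63 differences was wide, and the software intervals of the 2 genes did not overlap. Fbxo30, which encodes the ligase MUSA1, known to be held down by BMP signalling, had 393 ± 39.4 in the slow pool and 329 ± 32.9 in the fast pool (log2 0.16). Fbxo40, a muscle-specific F-box gene whose product targets the insulin receptor substrate IRS1, had 242 ± 24.3 in the slow pool and 228 ± 22.8 in the fast pool (log2 -0.0082). Its sign was positive under 4 of the 9 scalings and negative under 5, whereas Fbxo32 and Fbxo30 were above 0 under all 9.

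Asb2 encodes an ankyrin-repeat subunit of a cullin-5 ligase that targets filamins and lowers muscle mass when overexpressed in mice. Its signal was 7852 ± 785 in the slow pool and 7217 ± 722 in the fast pool. The pools were nearly level (log2 0.023, interval -0.38 to 0.43), and the sign was negative under 3 of the 9 scalings. Of 10 other Asb family genes, all above background, Asb10 was 2.14-fold higher in slow fibres, with a log2 difference of 1.07 by its second probe. Asb4 was just past 2-fold towards fast fibres, with 503 in the slow pool and 941 in the fast pool, and -1.25 by its second probe. The remaining 8 Asb genes were within 2-fold, as were 77.9% of all genes measured on both arrays.

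Bnip3 encodes a BCL2-family mitophagy receptor. Its single probe had a signal of 70106 ± 7011 in the slow pool and 17938 ± 1794 in the fast pool. The slow pool was far above the fast pool (log2 1.87, interval 1.46 to 2.28), and 394 of 12855 genes had a larger difference towards slow fibres. The log2 difference ran from 1.68 to 2.29 over the 9 scalings. No other probe was matched to Bnip3 by accession, so this value rests on 1 probe.

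The Bnip3 upstream sequence is shown because this gene had the largest difference among the receptors and is a known hypoxia target. It is from RefSeq (GRCm38.p6, chr7:138909507-138909756, minus strand), 5′ to 3′, with matches to the same motifs in capitals.
Bnip3: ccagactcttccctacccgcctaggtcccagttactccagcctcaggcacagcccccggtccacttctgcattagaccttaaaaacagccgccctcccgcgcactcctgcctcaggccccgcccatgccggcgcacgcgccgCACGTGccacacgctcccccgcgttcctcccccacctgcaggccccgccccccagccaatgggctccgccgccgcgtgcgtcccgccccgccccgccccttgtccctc
The capitals mark an E-box (CACGTG) that begins 108 bases before the start and holds the hypoxia response core (ACGTG) on both strands, so the 2 motifs overlap. CACGTG was found in 7.15% and ACGTG in 19.6% of the 32851 promoters. Among the 9 promoters of the genes studied here, those of Bnip3 and Asb2 held both. The Bnip3l promoter was not among the 9 searched. A MEF2 site of 10 letters, searched in the same way and found in 3.69% of all promoters, was in none of the 9. Of these bases 72.4% were G or C in the Bnip3 sequence, and 56.8% in the Trim63 sequence.

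The other receptors did not share the Bnip3 difference. Bnip3l, also called NIX, is the closest relative of Bnip3 and is known for clearing mitochondria from maturing red cells. Its brighter probe gave 3188 ± 319 in the slow pool and 3109 ± 311 in the fast pool, and its other probe 1075 ± 107 in the slow pool and 1130 ± 113 in the fast pool. The log2 differences were -0.062 and -0.17, within 0.11 of each other, and both turned positive (0.36 and 0.25) under spike-in scaling. Fundc1 encodes a receptor that acts in hypoxia and is unrelated to the BCL2 family, and its signal was 886 ± 88.6 in the slow pool and 963 ± 96.3 in the fast pool. Its log2 difference was -0.22 (interval -0.63 to 0.19), with a sign that turned to 0.20 under spike-in scaling.

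**Figure D2:**
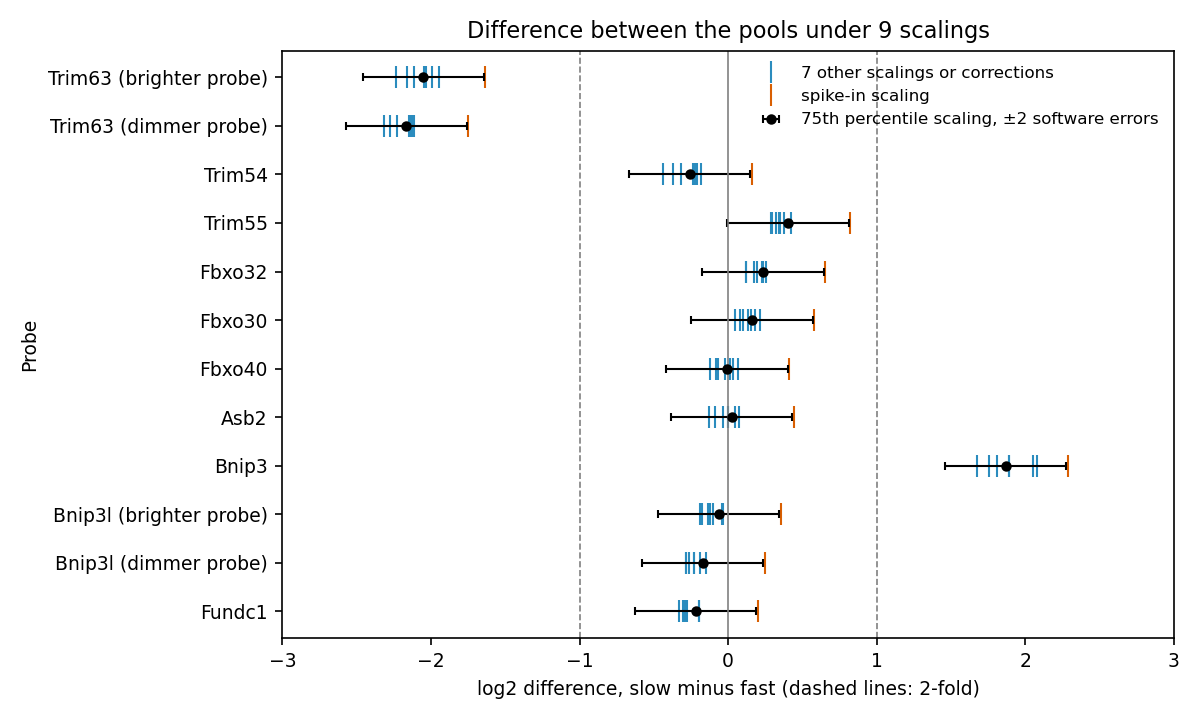
Log2 difference (slow minus fast) of each of the 12 probes under 75th percentile scaling (black points, bars of 2 software errors), spike-in scaling (orange) and the other scalings and background corrections (blue). Trim63 lies below -1 and Bnip3 above 1 under all 9, whereas Trim54, Bnip3l and Fundc1 are negative under 8 and positive under spike-in scaling, and Fbxo40 and Asb2 take either sign.

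The median log2 difference of the 10 genes was 0.0076, beside 0.050 for the 12855 genes measured on both arrays, and 5 genes were above 0 and 5 below. The median size of a difference, regardless of sign, was 0.23 for the 10 genes and 0.46 for all genes. Spike-in scaling moved the median of all genes by 0.42 and the authors' value table by -0.11, and each gene studied here moved with it.

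**Figure D3:**
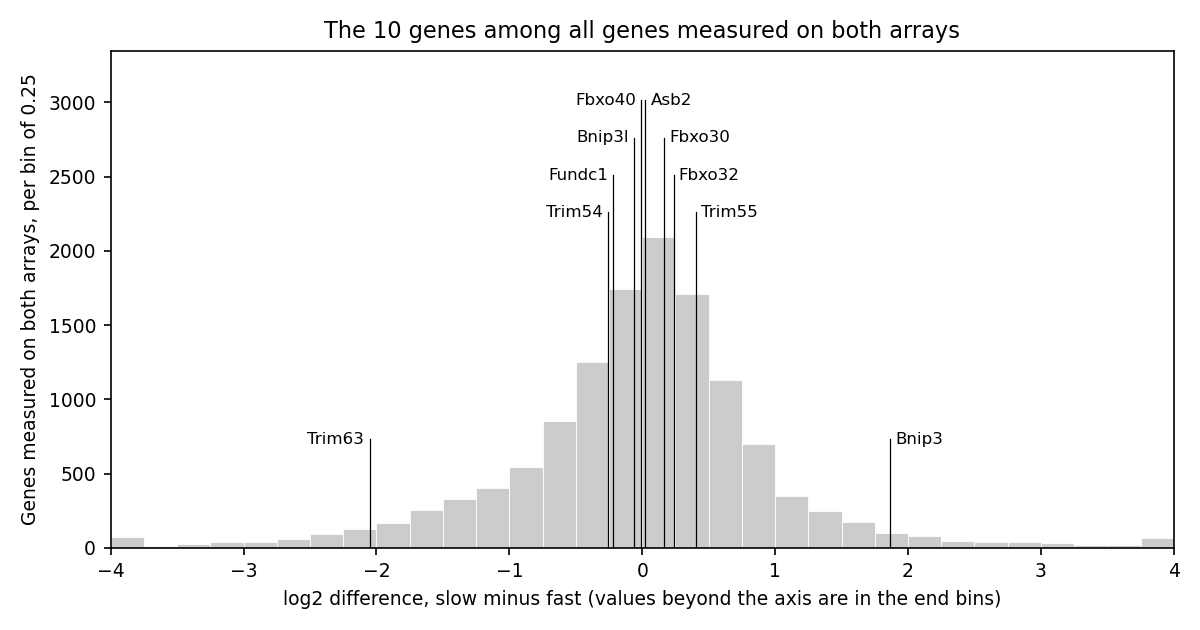
Histogram of the log2 difference (slow minus fast) of the 12855 genes measured on both arrays, in bins of 0.25, with the 10 genes marked by lines whose height only spaces the labels. The other 8 lie in the centre, between -0.26 and 0.40, beside Trim63 at -2.05 and Bnip3 at 1.87 in the flanks. The 123 genes beyond 4 on either side are counted in the end bins. The signs of Trim54, Fundc1 and Bnip3l turn under spike-in scaling, and those of Fbxo40 and Asb2 under several scalings.

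The ubiquitin pathway around the ligases was examined through fixed lists. Each list is to be read beside all 14647 genes above background in either pool. Of those, 10.7% were past 2-fold towards slow fibres and 14.2% towards fast fibres. Of 23 other muscle ligase genes above background, 3 were past 2-fold towards slow fibres, 3 towards fast fibres and 17 were within 2-fold (median 0.099). Smurf1, a ligase of BMP and TGF-beta signalling, gave 895 in the slow pool and 330 in the fast pool, 2.53-fold higher in slow fibres. Fbxo21, an F-box gene linked to denervation atrophy in mice, was 2.18-fold higher in slow fibres but at 0.88 on the log2 scale at its lowest over the scalings. Fbxl22, an F-box gene whose product acts at the Z-disc, gave 105 in the slow pool and 574 in the fast pool, 5.84-fold higher in fast fibres. Scaffolds and cofactors of cullin ligases (cullins, RING partners, Skp1, elongins, Nedd8 and Cand1) were within 2-fold for 10 of 10 genes. Of these 4 were above 0 and 6 below, with a median of -0.0025. Cand1, an exchange factor for cullin ligases, was the farthest from 0, at 0.86, with 1.21 by its other probe and 1.28 under spike-in scaling.

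Upstream of the ligases, 18 of 20 genes for ubiquitin, its activating enzymes and conjugating enzymes were within 2-fold (median 0.12). The share was 77.9% for all genes measured on both arrays. Ube2g2, a conjugating enzyme of endoplasmic reticulum quality control, was 3.02-fold higher in slow fibres, with 6671 in the slow pool and 2061 in the fast pool. Ube2d1, of a family of conjugating enzymes that MuRF1 can use in vitro, went the way of Trim63 and was 2.77-fold higher in fast fibres, with 892 in the slow pool and 2311 in the fast pool. Its second probe gave a log2 difference of -1.37. Ube2d2a (0.24 by its brightest probe) and Ube2d3 (0.32), of the same family, did not share this direction and were within 2-fold. Among 10 deubiquitinase genes above background, Usp13 was 2.19-fold higher in slow fibres and 9 were within 2-fold (median 0.32). Under at least 1 scaling or correction, Usp13 came within 2-fold, as did Asb10 (0.98 on the log2 scale) and Asb4 (-0.58).

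Genes that act beside the mitophagy receptors were mostly within 2-fold, as were 77.9% of all genes measured on both arrays. All 11 genes above background of the PINK1-parkin route, in which ubiquitin on the mitochondrion recruits autophagy adaptors, were within 2-fold. Their median was 0.17, with 8 of 11 above 0, beside a median of 0.050 for all genes measured on both arrays. Pink1, the kinase that marks damaged mitochondria, was the farthest from 0, with 22229 in the slow pool and 13166 in the fast pool (log2 0.66, 0.78 by its other probe), and passed 2-fold under spike-in scaling. Another probe of Tomm20, an import receptor of the outer membrane, was at 1.10. Of 13 genes of other receptors and receptor partners, 11 were within 2-fold (median 0.21). Bcl2l1, whose product BCL-XL binds Bnip3 family proteins, was 2.90-fold higher in slow fibres, with 1672 in the slow pool and 538 in the fast pool. Its other probes gave log2 differences of up to 1.65. Bcl2 was 2.30-fold higher in fast fibres at dim signals of 12.1 in the slow pool and 26.0 in the fast pool, and its log2 difference was as near to 0 as -0.28 under another scaling or correction.

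The machinery downstream of the receptors did not move as one. Of 25 autophagosome genes, 23 were within 2-fold (median 0.11), as were 77.9% of all genes measured on both arrays. Atg13, of the ULK initiation complex, was 3.02-fold and Atg9a, a membrane carrier protein, 2.52-fold higher in slow fibres. Atg9a was at 0.71 on the log2 scale at its lowest. Of 15 lysosome genes, 11 were below 0 (median -0.55, beside 0.050 for all genes measured on both arrays). The fibroblast markers ran in that direction (median -1.77). Of the macrophage and leukocyte markers measured on both arrays, 4 of 5 did (median -0.91). Among these 4, Cd3e was nearly level at -0.043, and Csf1r was at -0.91 by its brightest probe and 0.42 by another. Cd163, above background in the slow pool only, went the other way, with a bound of 0.92. The part of such cells in the lysosome values was not tested. Only Gaa, the acid alpha-glucosidase, and Ctsb, cathepsin B, were past 2-fold towards fast fibres (2.15-fold and 2.07-fold). Of all genes above background, 14.2% were past 2-fold in that direction. Under spike-in scaling Gaa and Ctsb were within 2-fold, while Lamp2 (1.32), a lysosomal membrane protein, and Mitf (1.02), a transcription factor, passed 2-fold towards slow fibres. These 2 genes were named after their values were seen.

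**Figure D4:**
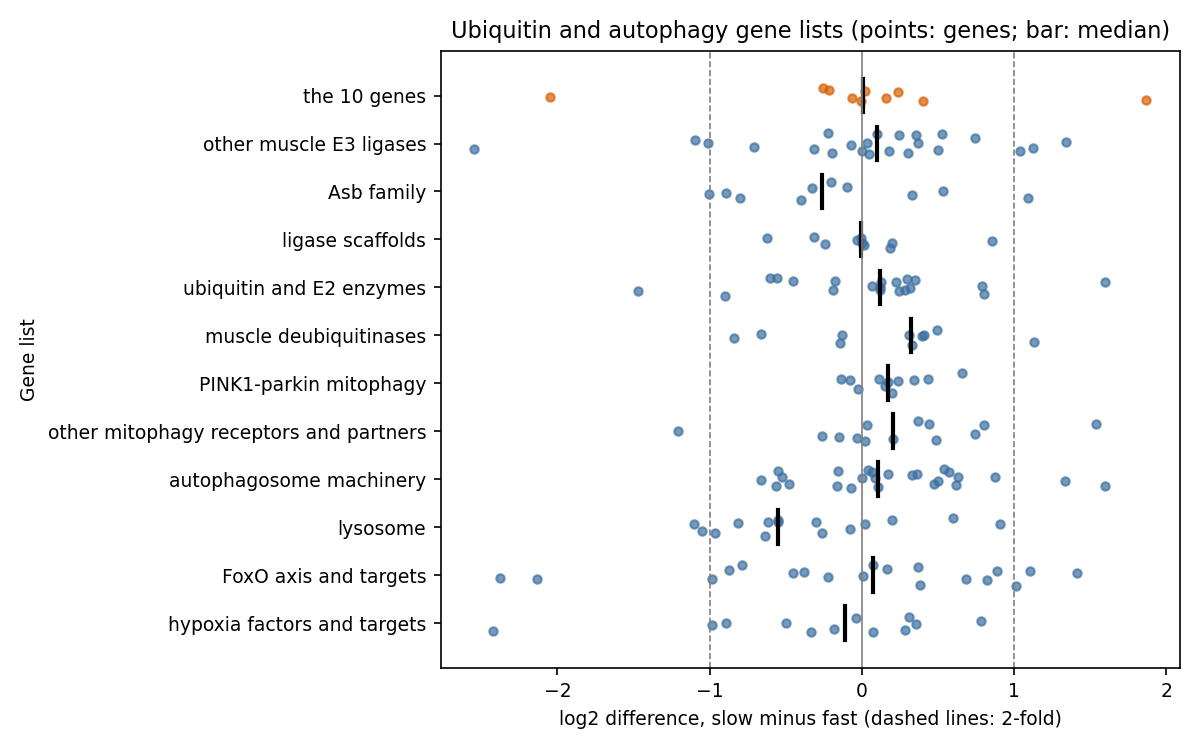
Log2 difference (slow minus fast) of the genes measured on both arrays in each ubiquitin, autophagy and regulator list, with a bar at each median and the 10 genes studied here in orange at the top. Most points lie within 2-fold (dashed lines), as do 77.9% of all genes measured on both arrays, and the lysosome list has the lowest median, at -0.55.

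Known regulators of Trim63 and Bnip3 and their other targets went both ways. Of 19 genes of the FoxO axis and its targets, including glucocorticoid-induced genes, 3 were past 2-fold towards slow fibres, 2 towards fast fibres and 14 were within 2-fold (median 0.077). For all genes above background the shares past 2-fold were 10.7% and 14.2%. Tsc22d3, the glucocorticoid-induced leucine zipper gene, was 5.20-fold higher in fast fibres, the direction of Trim63, with 3131 in the slow pool and 15220 in the fast pool. Gadd45a, a stress gene that rises in denervated muscle, was 4.39-fold higher in fast fibres, with 919 in the slow pool and 3773 in the fast pool. By contrast Fkbp5, also induced by glucocorticoids, was 2.15-fold higher in slow fibres (at its lowest 0.89 on the log2 scale), and Pdk4, a FoxO target that slows pyruvate oxidation, 2.66-fold. Named after their values were seen, Foxo1 was at -0.22 and Foxo3 at -0.45 on the log2 scale, with 0.56 by a second Foxo3 probe.

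Of 12 hypoxia factors and targets, 0 were past 2-fold towards slow fibres, the direction of Bnip3, and 1 towards fast fibres (median -0.11), beside 10.7% and 14.2% of all genes. Under spike-in scaling 1 of them passed 2-fold towards slow fibres. Pfkfb3, a glycolytic regulator induced by hypoxia, gave 1682 in the slow pool and 8411 in the fast pool, 5.35-fold higher in fast fibres. Hif1a, named after its value was seen, was nearly level at 0.07. Among 14 genes reported as substrates of these ligases, 1 was past 2-fold towards slow fibres and 7 towards fast fibres (4 under spike-in scaling), but this list holds sarcomere isoforms that define the fibre types. They include Myl2, the slow light chain, 56.9-fold higher in slow fibres, and Mybpc2, the fast myosin-binding protein C, not well above background in the slow pool with a bound of 11742-fold towards fast fibres (a log2 difference of -10.50 at its smallest over the scalings). Myod1, a myogenic factor that atrogin-1 targets, was 18.2-fold higher in fast fibres.

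The pools matched their labels and differed in traces of other cells. All 10 slow fibre markers were past 2-fold towards the slow pool and all 12 fast fibre markers towards the fast pool. Of 11 endothelial markers, 9 were past 2-fold towards fast fibres, with summed signals of 1682 in the slow pool and 5277 in the fast pool. Fibroblast markers were so for 9 of 11, with 8297 in the slow pool and 30878 in the fast pool, and erythrocyte markers for 6 of 6 above background, with 6796 in the slow pool and 16968 in the fast pool (sums over genes measured on both arrays). Over the 9 scalings the counts towards fast fibres ran from 4 to 9 endothelial, 6 to 9 fibroblast and 2 to 6 erythrocyte markers. Fast fibre markers numbered 11 to 12. Macrophage and leukocyte markers were past 2-fold in fast fibres for 2 of 6 above background, smooth muscle markers for 3 of 8 (and 1 in slow fibres) and satellite cell markers for 2 of 6. Neither array showed the pan-leukocyte gene Ptprc well above background. The endothelial, fibroblast and erythrocyte lists ran in the direction of Trim63 and opposite to Bnip3, whereas 4 of the 6 satellite cell markers measured on both arrays were above 0. The part of other cells in either difference was not tested.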

How the data were processed

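Scanner files of 2 Agilent arrays of 1 colour (Cy3, 0.1 µg total RNA, per the labels' protocols) hold spot intensities that the authors extracted with Agilent Feature Extraction, version 12.0.3.1 per the submitters' processing notes. The deposited processed intensity is background-subtracted and detrended within an array and not normalized between arrays. The flags for background, saturation and outliers (0 or 1) are from the same deposited files. The authors' value table held the same intensities times 2.45 (slow) and 2.83 (fast), with column medians of 27.1 and 30.1, no log and no centring, and the target of these factors is unknown. The array design refers to mm9.

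Control spots and 159 spots with an outlier flag were left out, repeated spots averaged, and log2 signals reduced by each array's 75th percentile. Accessions without versions matched 33763 of 56596 probes (59.7%) to RefSeq genes of GRCm38.p6, used for names. No probe is placed in an exon here. A gene with several probes took its brightest probe well above background on at least 1 array. For a gene above background in 1 pool only, its value there was set against the dim signal or, where higher, the dimmest signal that passed as well above background, which gives a lower bound. With 1 array per group no test exists and a size rule of 2-fold was used. Probes printed repeatedly (291) had a median SD of 0.045 between spots for a log2 difference. Alternatives used limma 3.58.1 in R 4.3.3 (normexp with an offset of 50 on median intensities, loess with a span of 0.3) and Python 3.11.15. The calculation was tested on data simulated from the fast array, with planted differences well past 2-fold. Genes above background in 1 pool only and differences near the 2-fold rule were not part of that simulation. Named from each pathway list were the 2 highest and 2 lowest genes past 2-fold or else the farthest from 0, and 1 gene so selected is not reported here. The 10 genes, the lists and the rules were chosen with earlier results of these data known. Spots well above background made up 50.9% of 59305 on the slow array and 52.3% on the fast array.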

Additional observations from a re-analysis of the deposited data

How the results depend on the processing

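No paired analysis was possible because each group has 1 array. The counts of the 10 genes past 2-fold stayed at 1 in slow and 1 in fast fibres under all 11 alternatives, and it was Bnip3 and Trim63 under each of the 9 scalings. The counts over all genes, 1562 in slow and 2080 in fast fibres, became 3114 and 1301 under spike-in scaling, which puts 70.5% of calls in slow fibres against 42.9%. They became 771 and 984 under normexp with quantile normalization and 810 and 951 under normexp with the 75th percentile. A size rule of 1.5-fold gave 3099 and 3368, since it calls smaller differences, and no filter on dim probes gave 2482 and 3071, since it counts more genes. Spike-in scaling moves every log2 difference by the same 0.42 towards slow fibres, relative to the 75th percentile, and its counts follow from that shift. Why the spike-in controls differed by this much was not tested, nor was the cause for the normexp settings. Over the 9 scalings, genes past 2-fold in slow fibres numbered 1 to 4 of the other ligases, 1 to 6 of the FoxO list and 1 to 5 of the autophagosome list. They numbered 0 to 2 of the lysosome list and 0 to 1 each of the hypoxia, PINK1-parkin and scaffold lists. Those in fast fibres numbered 1 to 3 of the other ligases, 0 to 3 of the lysosome list, 1 to 3 of the hypoxia list and 4 to 7 of the substrate list. Differences below about 0.41 on the log2 scale lie within 2 software errors and so are not told apart from 0 by that measure. Spots printed repeatedly had a smaller median SD, 0.045, and neither value covers variation between animals.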

Other observations

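Several pathway genes, chosen after their values were seen, gave different answers by different probes. Ube2n, a conjugating enzyme that builds signalling rather than degradative chains, had a log2 difference of 0.23 by its brightest probe and -1.26 by another. Wwp1, a ligase of the Nedd4 family, was at -1.01 by its brightest probe and up to 0.15 by others. The brightest probe came as near to 0 as -0.59 over the scalings. The place of Wwp1 among the 3 ligases higher in fast fibres thus depends on the probe and the scaling. Ube4b, a ligase counted as within 2-fold, was at 0.31 by its brightest probe and at 1.09 and 1.25 by others. Arnt, the partner of hypoxia-inducible factors, was at 0.31 and 1.30. The probes of Trim63 and Bnip3l, by comparison, were 0.11 apart within each gene.

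Asb2 targets filamins. Flnc, the muscle filamin, gave 50642 in the slow pool and 48982 in the fast pool, with log2 differences of -0.05 and -0.43 by its probes. Flna, the widely expressed filamin, was at -1.20 by its brightest probe and near 0 by another.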
